A study of Mustela putorius furo with 2 samples.

Results

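Axon guidance genes, the ligands and receptors by which growing axons and migrating neurons read their surroundings, were followed across the cell classes of ferret cerebral cortex. The set took every feature whose symbol belongs to the semaphorins, plexins, neuropilins, ephrins, Eph receptors, SLITs, ROBOs, netrins, netrin-Gs, UNC5 proteins or DCC, leaving out SEMA3E and UNC5D. This gave 66 genes of the 28156 features, of which 14296 have a symbol: 19 semaphorins, 14 Eph receptors, 8 plexins, 6 ephrins, 5 netrins and netrin-Gs, 5 netrin receptors, 4 ROBOs, 3 SLITs and 2 neuropilins. NTN1, the founding vertebrate netrin, was not analysed here. UNC5CL came in through its symbol, and it is an intracellular relative of UNC5C, not a guidance receptor. Single-nucleus RNA-seq libraries had been made on a droplet platform from frozen somatosensory cortex of ferrets (Mustela putorius furo), whose cortex is normally folded. The tissue of 1 library was labelled upper band and that of the other deeper band. Both carry the genotype DCX knockout, while the series text speaks of a knockdown, so there was no unmutated tissue to compare with. With 1 library per band, band, library and animal cannot be told apart, no test between bands was possible, and the labels used here give no age, sex or number of animals.

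Guidance ligands work in families with their own receptors. Secreted or membrane-bound semaphorins bind plexins, often with a neuropilin as co-receptor, ephrins bind Eph receptors on touching cells, SLITs bind ROBOs, and netrins bind DCC and UNC5 proteins. In the cortex these systems steer axon growth and neuronal migration, and in the mature brain many members act at synapses, in myelin-forming cells and in blood vessels. Doublecortin, the DCX product, binds microtubules in neurons on the move, and without it the cortex forms smooth or doubled.

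The upper-band library held 66253015 UMIs (counted RNA molecules) in 7151 barcodes and the deeper-band library 78352064 in 9694, and 24 barcodes occurred in both. After filtering, 6261 and 8150 nuclei with medians of 7992 and 4887.5 UMIs remained. DCX RNA was still counted in both libraries, at 78.5 and 77.2 CPM over all nuclei, which does not check a change in the protein. Clusters formed without the 66 genes were named by resemblance to excitatory neurons (3183 nuclei of the upper-band library, 3448 of the deeper-band library), inhibitory neurons (1021 and 770), astrocytes (388 and 806), oligodendrocytes (848 and 2043), oligodendrocyte precursors (126 and 193) and microglia (47 and 66). SLC17A7, a textbook excitatory marker, separated excitatory nuclei (66.4 and 89.5 CPM) from inhibitory (17.0 and 15.3 CPM) but hardly from oligodendrocyte-like nuclei (50.2 and 52.6 CPM). LDB2, another marker on the excitatory list, stood at 1346 and 1479.5 CPM against 77.0 and 53.3 CPM in oligodendrocyte-like nuclei. Other listed markers did not separate all classes. NRGN, low everywhere, stood in oligodendrocyte-like nuclei at 280% and 113% of its excitatory level, and PTPRK in precursors at 155% and 158%. Another 4 clusters stayed unnamed. Free RNA was not measured here. As a guide to RNA of other classes, the 13 excitatory markers stood in oligodendrocyte-like nuclei at a median of 9.02% and 14.2% of their excitatory level, and the 13 oligodendrocyte markers in excitatory nuclei at a median of 0.554% and 0.394%.

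The level of a gene is its share of all UMIs of a class in counts per 1000000 (CPM), and paired values give the upper-band library first and the deeper-band library second. Levels were compared for 1 gene across classes, never between genes, since gene length and capture differ.

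Many guidance genes stood high in a single cell class. The netrin-Gs, SLIT1 and SLIT3 were led by excitatory neurons, while the semaphorins with a leading class had it among the glia. A gene was called led by a class when its level there was at least 2-fold that in each of the other 4 classes, in both libraries, with at least 50 UMIs per library. Of the 66 genes, 50 reached that count and 20 of them were led by a class (40%), against 15.8% of 14654 genes that reached it. Excitatory neurons led 8 genes (3.45% of all genes), oligodendrocytes 6 (3.98%), oligodendrocyte precursors 3 (2.09%), astrocytes 2 (4.23%) and inhibitory neurons 1 (2.06%). No test of this share was made, and microglia were too few to be counted among the classes.

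**Figure D1:**
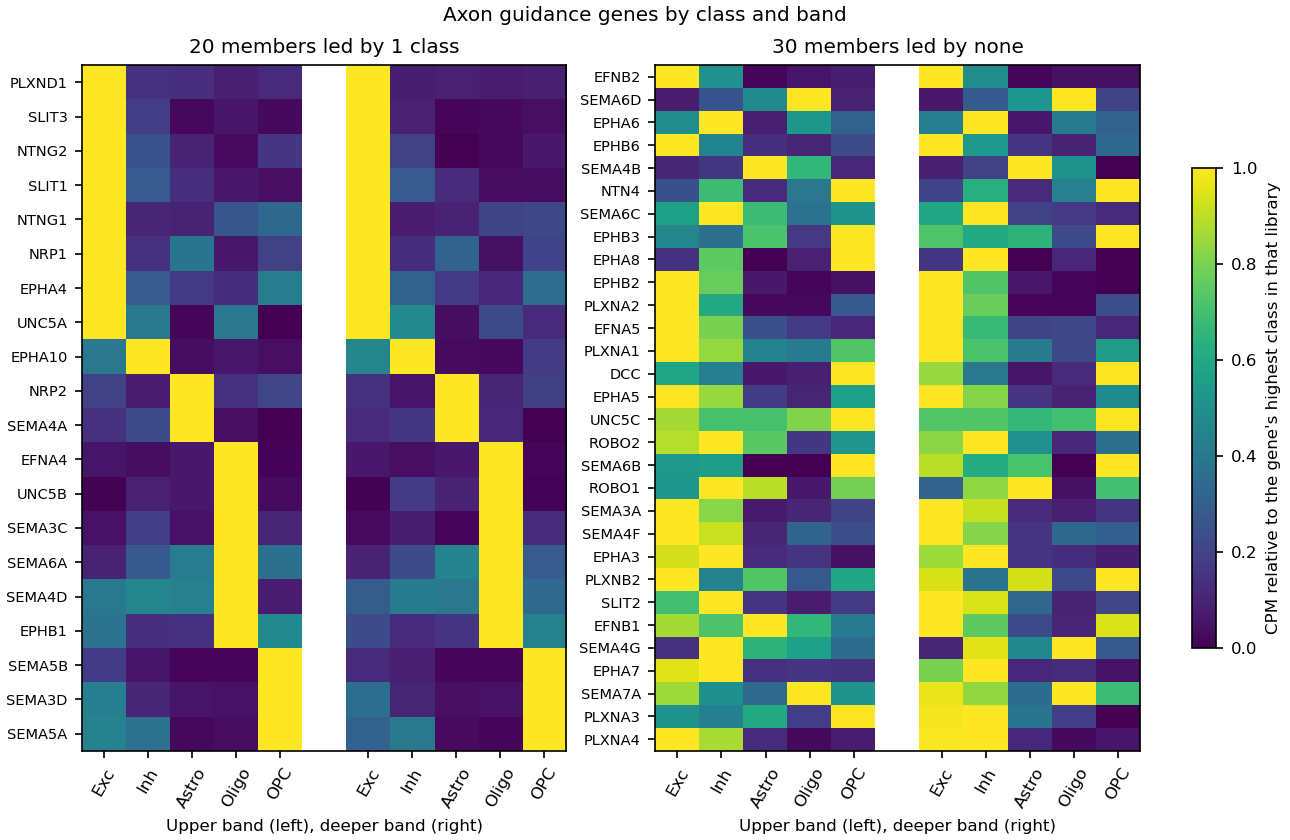
Level of each of the 50 counted genes in 5 classes, relative to the gene's own highest class in that library (colour, 0 to 1, from CPM), with the upper band on the left and the deeper band on the right of each panel. The 20 genes led by 1 class form blocks, 8 in excitatory neurons and 6 in oligodendrocytes, and the 30 others are spread over several classes.

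Semaphorins are the largest ligand family. All 7 semaphorins with a leading class had it in glia, and the 8 others that reached the minimum count had none. Of the 2318 genes led by a class among all genes, astrocytes led 620, oligodendrocytes 583 and oligodendrocyte precursors 307. SEMA5B, a transmembrane semaphorin, stood at 514 and 438 CPM in oligodendrocyte precursors and at 89.9 and 53.7 CPM in excitatory neurons, its next class. SEMA5A, its close relative, stood at 655 and 610.1 CPM in precursors and 291 and 192 CPM in excitatory neurons. SEMA3D, a secreted semaphorin, stood at 187 and 168 CPM in precursors and 79.7 and 60.6 CPM in excitatory neurons. In mature oligodendrocytes SEMA5A stood at 22.4 and 10.2 CPM. Oligodendrocytes led 3 other semaphorins. SEMA3C, a secreted semaphorin that binds both neuropilins, stood at 156 and 184 CPM in oligodendrocytes against 29.0 and 15.6 CPM in inhibitory neurons. SEMA6A, a transmembrane ligand of PLXNA2 and PLXNA4, and SEMA4D, a ligand of PLXNB1, were also led by oligodendrocytes. SEMA4A was led by astrocytes at low levels, 12.4 and 11.1 CPM against 2.80 and 1.79 CPM in inhibitory neurons. SEMA3A, the classical secreted repellent of axons, had no leading class, with 78.6 and 84.8 CPM in excitatory and 64.7 and 77.2 CPM in inhibitory neurons and 8.29 and 7.30 CPM in oligodendrocytes. The precursor levels rest on few nuclei, and SEMA5B there was counted from 190 and 208 UMIs.

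The other ligands lay mostly with neurons. SLIT3, a secreted ligand of ROBO receptors, stood at 222 and 249.6 CPM in excitatory neurons and 40.5 and 22.8 CPM in inhibitory neurons. SLIT1 had the same order, with 267 and 196 CPM in excitatory and 76.2 and 56.4 CPM in inhibitory neurons. SLIT2 differed from both in having no leading class, with 871 and 1090.3 CPM in excitatory neurons and 1250.1 and 1028 CPM in inhibitory neurons. The netrin-Gs are lipid-anchored relatives of netrin that bind partner proteins at synapses rather than DCC. NTNG1 stood at 374 and 415 CPM in excitatory neurons, and its next class was precursors at 125 and 88.4 CPM. NTNG2 stood at 34.4 and 31.4 CPM in excitatory neurons and 8.63 and 6.03 CPM in inhibitory neurons. NTN4, a secreted netrin found in basement membranes, went the other way, with 111 and 130.4 CPM in precursors, 76.0 and 82.1 CPM in inhibitory neurons and 27.2 and 26.5 CPM in excitatory neurons. Among ephrins, EFNA4 had the largest lead of all counted genes over its next class, with 295 and 292 CPM in oligodendrocytes against 19.9 and 20.1 CPM in astrocytes. EFNA5, another lipid-anchored ephrin, stood at 816 and 919.8 CPM in excitatory and 650.3 and 625 CPM in inhibitory neurons, with no leading class. EFNB2, a transmembrane ephrin that also signals backwards into its own cell, was just short of a lead, at 132 and 138 CPM in excitatory and 66.5 and 68.0 CPM in inhibitory neurons.

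Of the 25 receptors and co-receptors that reached the minimum count, 8 were led by a class, and of the 25 ligands 12. Among all genes the share was 15.8%, and the gap between receptors and ligands was not tested. PLXND1, a plexin that takes up signals of secreted semaphorins, stood at 66.9 and 97.5 CPM in excitatory neurons and 9.79 and 8.31 CPM in inhibitory neurons. The 2 neuropilins, co-receptors for the secreted semaphorins, were parted between classes. NRP1 stood at 286 and 325 CPM in excitatory neurons and 111 and 104 CPM in astrocytes. NRP2 stood at 275 and 300.1 CPM in astrocytes and 53.1 and 43.2 CPM in excitatory neurons. EPHA4, which binds ephrins of both subfamilies, was led by excitatory neurons at 501 and 543 CPM, with precursors next at 211 and 194 CPM. EPHA10, an Eph receptor with an inactive kinase domain, was the 1 member led by inhibitory neurons, at 66.8 and 72.5 CPM against 26.6 and 33.1 CPM in excitatory neurons. EPHB1, a receptor for ephrin-Bs, was led by oligodendrocytes. UNC5 proteins are the repulsive netrin receptors, and each of the 3 had its own order of classes. UNC5B stood at 277 and 247 CPM in oligodendrocytes, 25.4 and 44.2 CPM in inhibitory neurons and 1.93 and 1.31 CPM in excitatory neurons. UNC5A was led by excitatory neurons at 51.4 and 52.1 CPM. UNC5C lay near one level everywhere, from 580.4 to 817 CPM over the 5 classes of the upper band and from 539 to 809.9 CPM over those of the deeper.

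Several receptors were shared by both neuron classes. PLXNA4, which signals for SEMA3A and SEMA6A, stood at 1179 and 1141 CPM in excitatory neurons, 1028 and 1146 CPM in inhibitory neurons and 29.7 and 28.7 CPM in oligodendrocytes. EPHA5, a receptor for ephrin-As, stood at 1265 and 1246 CPM in excitatory and 1071 and 1020.0 CPM in inhibitory neurons. EPHA7, of the same family, stood at 219 and 169 CPM in excitatory and 229.8 and 212 CPM in inhibitory neurons. EPHA6 was higher in inhibitory neurons, at 648 and 714 CPM against 319 and 305 CPM in excitatory ones. It was not confined to neurons, standing in oligodendrocytes at 108% and 96.5% of its excitatory level and in precursors at 62.7% and 73.0%. ROBO1 and ROBO2, the SLIT receptors of the brain, had different orders. ROBO1 stood at 846 and 968 CPM in astrocytes, 943 and 807 CPM in inhibitory neurons, 744 and 677 CPM in precursors and 494 and 310.0 CPM in excitatory neurons. ROBO2 stood at 307 and 403 CPM in inhibitory neurons, 273 and 333 CPM in excitatory neurons and 229 and 204 CPM in astrocytes. DCC, the attractive netrin receptor, stood at 763 and 614 CPM in precursors and 449 and 519 CPM in excitatory neurons.

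The 16 genes under the minimum count were SEMA3B, SEMA3F, SEMA3G, SEMA4C, PLXNB1, PLXNB3, EPHA1, EPHA2, EPHB4, EFNA1, EFNB3, NTN3, NTN5, UNC5CL, ROBO3 and ROBO4. SEMA3G had no UMI in the 5 classes of either library. ROBO3, known for axons that cross the midline, had 47 and 55 UMIs over the 5 classes. ROBO4, a receptor of endothelial cells, had 21 and 36. A count this low does not show that these genes are off.

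Outside the 5 classes the levels rest on fewer UMIs. In microglia-like nuclei NRP2 stood at 489 and 515 CPM and PLXND1 at 208 and 323 CPM, the latter from 17 and 27 UMIs, both above any of the 5 classes. An unnamed cluster with markers of blood vessels among its raised genes held 264 and 160 nuclei with medians of 1145.5 and 1126.5 UMIs. EPHA3, an Eph receptor for ephrin-As, stood there at 1398 and 401 CPM, against 58.2 and 102 CPM in inhibitory neurons. Its ratio between bands in that cluster was a log2 value of -1.80 (-2.13 to -1.49), with the 95% interval, which covers counting error only, in brackets here and below. An unnamed cluster with oligodendrocyte markers, of 77 and 481 nuclei, held EFNA4 at 251 and 202 CPM and SEMA3C at 9.65 and 13.3 CPM, so that of these oligodendrocyte-led genes the first but not the second stood near its level in the named class.

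Excitatory subclusters were then compared by layer markers. Of 19 subclusters, 9 resembled upper-layer neurons (1173 and 2607 nuclei), 4 deep-layer neurons (785 and 236) and 6 neither (1225 and 605). Deep-layer-like nuclei had more SLIT1 and more of 4 of the 12 semaphorins compared (SEMA3D, SEMA5A, SEMA5B and SEMA6D), and upper-layer-like nuclei more of both netrin-Gs, PLXND1 and DCC. Of 44 genes with at least 50 UMIs in each library, 15 (34.1%) differed at least 2-fold the same way in both libraries, against 9.59% of 12501 genes. Upper-layer-like nuclei had 7 of them (15.9%, against 5.24% of all genes) and deep-layer-like nuclei 8 (18.2%, against 4.35%).

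NTNG2 stood at 30.9 and 29.1 CPM in upper-layer-like and 0.906 and 1.73 CPM in deep-layer-like nuclei, the latter from 7 and 4 UMIs. Its log2 ratios, upper-layer-like over deep-layer-like, were 5.09 (4.04 to 6.41) and 4.07 (2.71 to 5.95). NTNG1 went the same way, at 503 and 401 CPM against 74.0 and 41.6 CPM, with log2 ratios of 2.76 (2.64 to 2.89) and 3.27 (2.98 to 3.57). Between these 2 named groups, both netrin-Gs thus stood higher on the upper-layer side in each library. Among subclusters with at least 20 nuclei in each library, NTNG2 peaked in subcluster 2, an unnamed one, at 67.3 and 62.9 CPM. PLXND1 stood at 113 and 109 CPM against 9.84 and 17.3 CPM, and its log2 ratios were 3.52 (3.19 to 3.87) and 2.65 (2.20 to 3.14). EPHB3, a receptor for ephrin-Bs, had log2 ratios of 1.83 (1.34 to 2.35) and 1.25 (0.54 to 2.07). EFNA4, the oligodendrocyte-led ephrin, was low in neurons, at 19.5 and 19.96 CPM against 6.86 and 7.37 CPM, with log2 ratios of 1.51 (1.08 to 1.96) and 1.44 (0.75 to 2.23). The 13 oligodendrocyte markers summed to 99.9 and 91.8 CPM in upper-layer-like and 159 and 131 CPM in deep-layer-like nuclei. Their part in the EFNA4 difference was not tested. EPHA6 had smaller ratios of 1.07 (0.99 to 1.16) and 1.23 (1.07 to 1.39). DCC passed 2-fold by little, with 1.03 (0.96 to 1.10) and 1.10 (0.98 to 1.23).

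On the deep-layer side, EPHB1 stood at 81.4 and 82.8 CPM in upper-layer-like and 324 and 301 CPM in deep-layer-like nuclei, with log2 ratios of -1.99 (-2.09 to -1.89) and -1.86 (-1.98 to -1.74). The 3 semaphorins that were led by oligodendrocyte precursors were all on this side within excitatory neurons. SEMA5A stood at 161 and 166 CPM against 566 and 561 CPM, SEMA3D at 57.5 and 42.5 CPM against 202 and 279 CPM, and SEMA5B at 54.4 and 38.0 CPM against 173 and 229 CPM. The 8 precursor markers summed to 180.0 and 237 CPM in upper-layer-like and 209 and 325 CPM in deep-layer-like nuclei. In precursors they summed to 9286 and 9982 CPM, and their part in these 3 differences was not tested. SEMA6D, a transmembrane ligand of PLXNA1, had log2 ratios of -1.26 (-1.61 to -0.91) and -1.28 (-1.70 to -0.83). NRP2, which astrocytes led, had log2 ratios of -1.14 (-1.30 to -0.98) and -1.54 (-1.73 to -1.34). The 12 astrocyte markers also summed to more in deep-layer-like nuclei, 404 and 483 CPM against 67.6 and 77.2 CPM in upper-layer-like and 11445 and 12287 CPM in astrocytes, with ALDH1L1 at 0 in both, and their part in the NRP2 difference was not tested. SLIT1, unlike SLIT2 and SLIT3, passed 2-fold, and had log2 ratios of -1.13 (-1.21 to -1.05) and -1.37 (-1.47 to -1.27). EPHA3 had log2 ratios of -1.09 (-1.22 to -0.95) and -1.90 (-2.02 to -1.78). It was also among the 10 most raised genes of an upper-layer-like subcluster, of 60 and 402 nuclei.

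**Figure D2:**
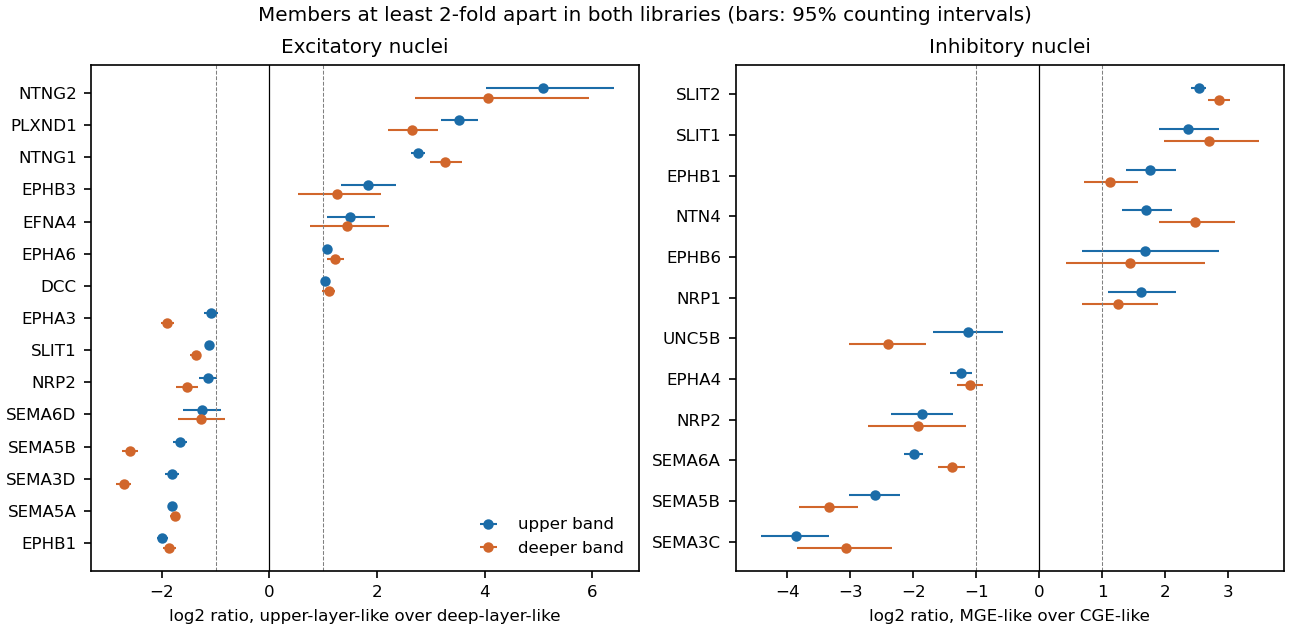
Log2 ratio of each gene past 2-fold in both libraries, upper-layer-like over deep-layer-like excitatory nuclei (left, 15 genes) and MGE-like over CGE-like inhibitory nuclei (right, 12 genes), with points for the upper-band (blue) and deeper-band (orange) library and bars for 95% counting intervals. Each gene has both points on the same side of 0, and the dashed lines mark 2-fold.

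Single subclusters were often more extreme than the layer classes. Levels were compared over the 17 subclusters with at least 20 nuclei in each library, numbered as the clustering gave them. NTNG1 peaked in subcluster 12, an upper-layer-like group led by PDGFD, MEGF10 and MME, at 1911 and 2235 CPM, and was at 16.4 and 11.2 CPM in subcluster 1, a deep-layer-like group led by GFRA1, TRPC7 and CDHR1. The median over subclusters was 226 and 201 CPM. EPHA3 peaked in that same subcluster 1, at 760.1 and 549.8 CPM, against a median of 21.1 and 22.4 CPM. SEMA3D also peaked there, at 479 and 521 CPM, as did NRP2, at 217 and 229 CPM, and EPHA10. In subcluster 1 a semaphorin, a neuropilin and 2 Eph receptors thus stood highest in both libraries. Subcluster 14 likewise held the peaks of EPHA6, EPHB1, ROBO1 and SLIT2. Peaks over all genes were not counted.

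Subcluster 5, a deep-layer-like group led by BMPR1B, RXFP1 and FOXP2, had the highest levels of SEMA5A, at 849 and 971 CPM, of SEMA5B, at 238 and 344 CPM, and of SLIT1, at 465 and 556 CPM. PLXND1 stood there at 4.81 and 3.85 CPM, against 149 and 137 CPM in subcluster 8, an upper-layer-like group. Subcluster 14, which no layer list named and whose nuclei had a median of 19902 UMIs in the upper band, held the highest EPHB1, at 909 and 1078 CPM, the highest ROBO1, at 1444 and 1975 CPM, the highest EPHA6, at 876 and 783 CPM, and the highest SLIT2, at 1371 and 1381 CPM. EPHA4 stood lowest in that subcluster, at 34.9 and 29.5 CPM, against 772 and 773 CPM in subcluster 9, where it was highest. EFNA5 peaked in subcluster 11, unnamed and led by NEB, ADAMTS19 and COL25A1, at 1988 and 2118 CPM. SLIT3 peaked in subcluster 8 at 458 and 469 CPM and stood at 9.37 and 6.82 CPM in subcluster 12, so that SLIT3 and NTNG1 marked opposite ends there. For NTNG1, PLXND1, EPHA3, EPHB1, SEMA5A and ROBO1 the log2 levels over the 17 subclusters had Pearson correlations between libraries of 0.97, 0.99, 0.94, 0.87, 0.95 and 0.90. Other genes gave lower ones, for example SEMA4B at -0.27, SEMA4A at 0.26, UNC5B at 0.40, PLXNB2 at 0.50 and EFNB1 at 0.55. The libraries were clustered together, so subclusters are shared by construction.

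**Figure D3:**
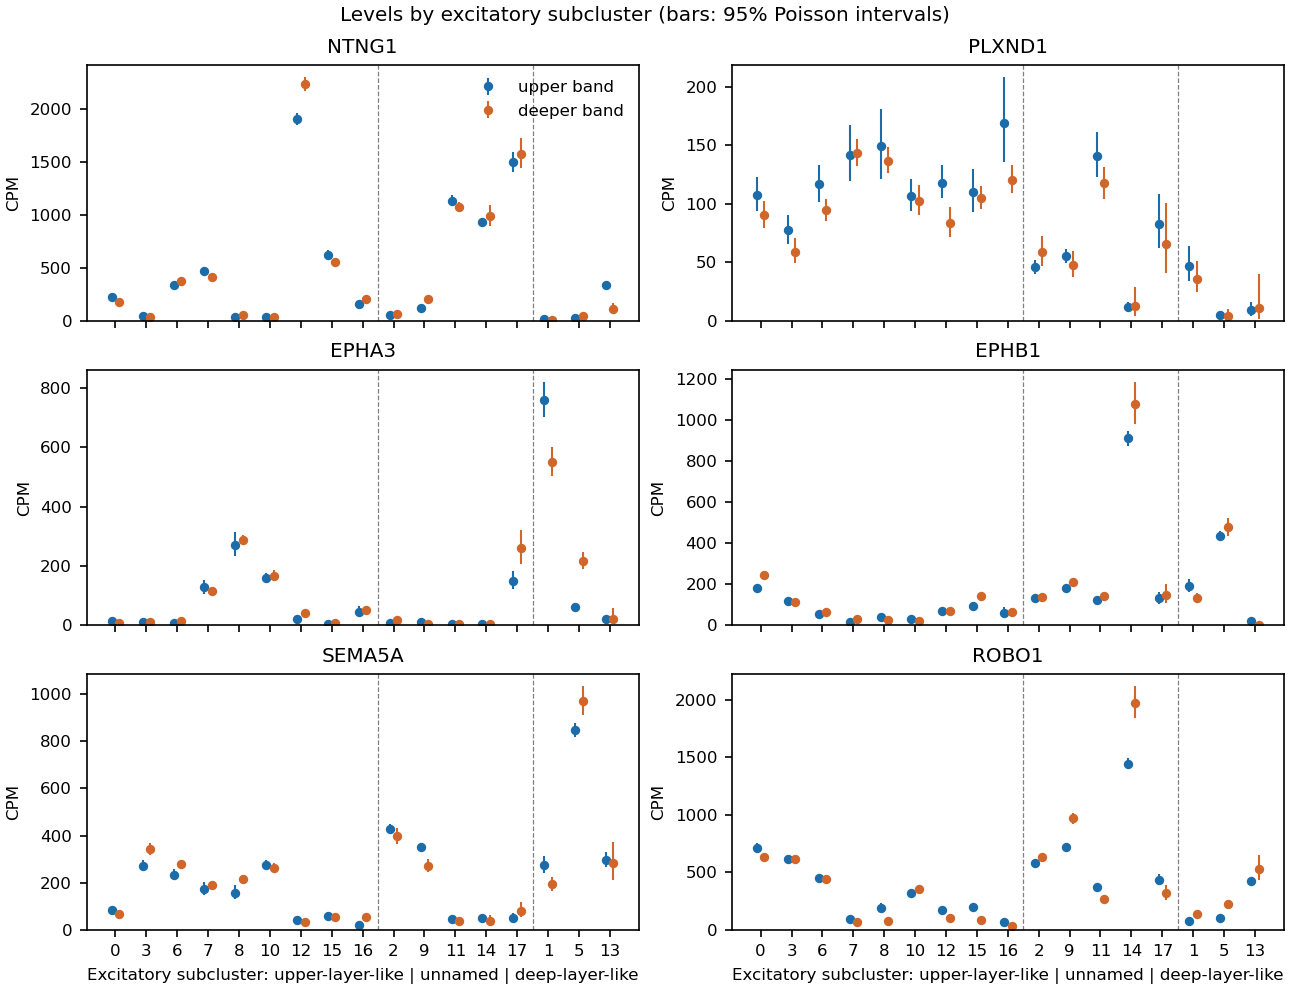
Level in CPM (linear axis) of 6 genes in 17 excitatory subclusters, ordered as upper-layer-like, unnamed and deep-layer-like, with blue points for the upper band, orange points for the deeper band and bars for 95% Poisson intervals. NTNG1 is highest in subcluster 12, EPHA3 in subcluster 1, EPHB1 and ROBO1 in subcluster 14 and SEMA5A in subcluster 5, in both libraries.

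Interneurons were split by their birthplace markers. Cells from the medial ganglionic eminence (MGE) give somatostatin and fast-spiking interneurons, and those from the caudal ganglionic eminence (CGE) give VIP and NDNF interneurons. Of 21 inhibitory subclusters, 12 were MGE-like (672 and 440 nuclei), 6 CGE-like (266 and 219) and 3 unnamed (83 and 111). SLIT1 and SLIT2 stood higher in MGE-like nuclei, and 3 of the 12 semaphorins compared (SEMA3C, SEMA5B and SEMA6A) in CGE-like nuclei, while SLIT3 and the other semaphorins did not differ 2-fold in both libraries. Of 42 genes with enough UMIs, 12 (28.6%) differed at least 2-fold the same way in both libraries, against 8.46% of 9077 genes, with 6 higher on each side (14.3%, against 4.45% for MGE-like and 4.01% for CGE-like among all genes). With each nucleus thinned to 1500 UMIs, 6 of these 12 were called again.

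SLIT2 stood at 1711 and 1461 CPM in MGE-like and 296 and 203 CPM in CGE-like nuclei, log2 ratios of 2.53 (2.41 to 2.65) and 2.85 (2.67 to 3.02). SLIT1 went with it, at 100.1 and 78.5 CPM against 19.6 and 12.2 CPM. NTN4 was at 94.1 and 104 CPM against 29.1 and 18.7 CPM, and EPHB6, an Eph receptor without kinase activity, at 13.7 and 17.5 CPM against 4.29 and 6.47 CPM. NRP1 and EPHB1 were also higher in MGE-like nuclei. The CGE-like side was led by SEMA3C, at 89.7 and 44.5 CPM against 6.15 and 5.32 CPM in MGE-like nuclei, log2 ratios of -3.87 (-4.42 to -3.35) and -3.07 (-3.86 to -2.33). SEMA5B stood at 80.2 and 131 CPM against 13.1 and 12.9 CPM, and SEMA6A at 397 and 241 CPM against 99.7 and 91.6 CPM. NRP2, which can serve as co-receptor for SEMA3C, was on the same side as SEMA3C, at 39.1 and 25.1 CPM against 10.8 and 6.58 CPM. EPHA4 and UNC5B were the others on this side. SEMA3C, SEMA6A and UNC5B are also oligodendrocyte-led. The 13 oligodendrocyte markers summed to 84.0 and 132 CPM in CGE-like and 99.0 and 136 CPM in MGE-like nuclei. Their part in the SEMA3C, SEMA6A and UNC5B differences was not tested. The 12 astrocyte markers summed to 223 and 231 CPM in CGE-like and 78.2 and 59.0 CPM in MGE-like nuclei, with SOX9 at 0 in CGE-like nuclei of both libraries, and their part in the NRP2 difference was not tested. The 8 precursor markers summed to 358 and 471 CPM in CGE-like and 187 and 169 CPM in MGE-like nuclei, with OLIG2 at 0 in all 4, and their part in the SEMA5B difference was not tested.

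Over 14 inhibitory subclusters with at least 20 nuclei in each library, some ligands and receptors were set in opposition. SEMA6A and its receptor PLXNA4 had Pearson correlations of -0.93 and -0.90 between their log2 levels. In subcluster 0, an MGE-like group, PLXNA4 was highest at 2002 and 2119.6 CPM and SEMA6A stood at 10.4 and 6.53 CPM. In subcluster 19, a CGE-like group led by NDNF, SEMA3C and PROK2, SEMA6A was highest at 856 and 820.1 CPM and PLXNA4 stood at 264 and 408 CPM. Over the 8 MGE-like subclusters alone the correlations were -0.93 and -0.88. Over the 17 excitatory subclusters they were -0.32 and -0.29, and over the 9 upper-layer-like ones -0.80 and -0.80.

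SLIT2 and ROBO1 were opposed too, with correlations of -0.64 and -0.60, and -0.72 and -0.81 within the 8 MGE-like subclusters. SLIT2 was highest in subcluster 0, at 2269 and 2051 CPM, where ROBO1 stood at 457 and 284 CPM, and ROBO1 was highest in subcluster 19, at 2335 and 1945 CPM, where SLIT2 stood at 593 and 598 CPM. SLIT2 and ROBO2 gave 0.093 and 0.11 over inhibitory subclusters but -0.52 and -0.62 within the MGE-like ones. Over excitatory subclusters they gave 0.62 and 0.49, and 0.82 and 0.68 within the upper-layer-like ones. SEMA3C and NRP2 went together in inhibitory subclusters, at 0.59 and 0.54, but not within the 8 MGE-like ones, at -0.024 and -0.21. SEMA5A and PLXNA2, which can bind class 5 semaphorins, gave 0.53 and 0.59 over excitatory subclusters and 0.26 and 0.26 over the 9 upper-layer-like ones. EFNA5 and EPHA5 were opposed in excitatory subclusters, at -0.51 and -0.47, and at -0.72 and -0.74 within the upper-layer-like ones. Over inhibitory subclusters they gave 0.047 and 0.16, and 0.33 and 0.37 within the MGE-like ones. These pairs were picked as the strongest in both libraries over all subclusters of a neuron class, among 25 ligand-receptor pairs computed in each. They were not all the strongest within the upper-layer-like subclusters. There SLIT1 and ROBO2 gave 0.89 and 0.91, and EFNA5 and EPHA4 gave 0.79 and 0.65. The points are subclusters of the same 2 libraries, not replicates, and they share depth and the clustering, so the correlations describe these nuclei. UNC5C, level over the classes, was uneven among interneurons, with 2227 and 2390.3 CPM in subcluster 19 against 205 and 197 CPM in subcluster 2. EPHA3 peaked in subcluster 1, an MGE-like group led by ETV1, PCSK6 and EYA2, at 394 and 597 CPM.

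**Figure D4:**
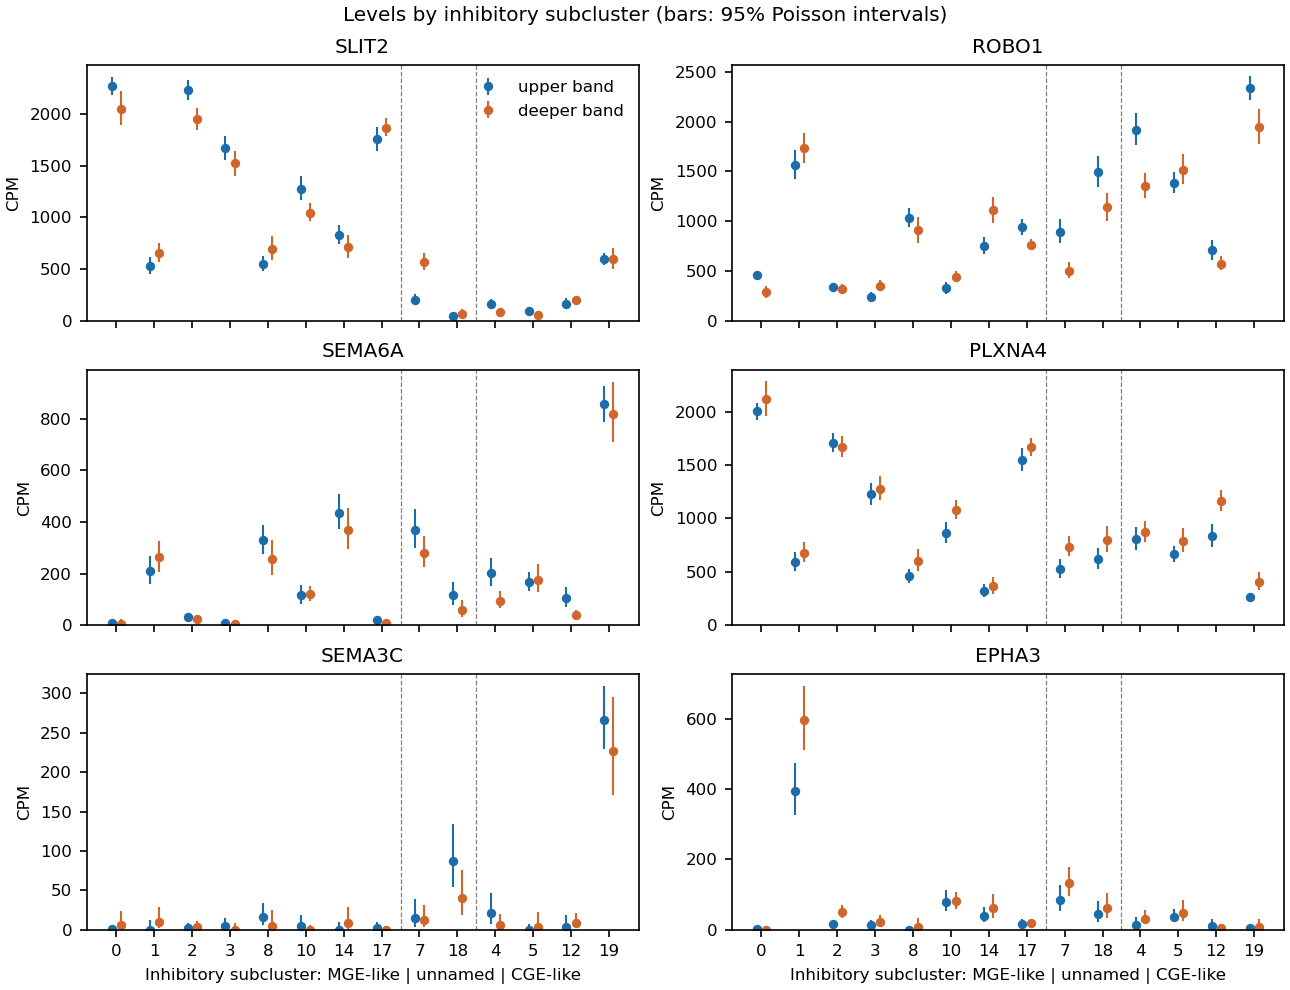
Level in CPM (linear axis) of 6 genes in 14 inhibitory subclusters, ordered as MGE-like, unnamed and CGE-like, with blue points for the upper band, orange points for the deeper band and bars for 95% Poisson intervals. SLIT2 and PLXNA4 are highest in subcluster 0, and ROBO1, SEMA6A and SEMA3C in subcluster 19, in both libraries.

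Between bands, 2 semaphorins, EPHB1 and ROBO1 were lower and EPHA3, EFNB1 and SEMA4C higher in excitatory neurons of the deeper band, a share of guidance genes near that of all genes. With at least 50 UMIs over both libraries, 52 genes were compared, and 7 (13.5%) differed at least 1.5-fold, against 11.9% of 15553 genes. In the deeper band 3 were higher (4.2% of all genes) and 4 lower (7.7%). The median log2 ratio, deeper over upper, was -0.015 over the 52 genes and -0.028 over all.

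EPHB1 was lower in the deeper band, 222 and 122 CPM, a log2 ratio of -0.86 (-0.91 to -0.81). SEMA5B stood at 89.9 and 53.7 CPM, with -0.74 (-0.82 to -0.67). SEMA5A stood at 291 and 192 CPM, with -0.60 (-0.64 to -0.56). All 3 had their highest subcluster outside the upper-layer-like ones, as did ROBO1, the SLIT receptor, which stood at 494 and 310.0 CPM, with -0.67 (-0.71 to -0.64). On the higher side was EPHA3 at 54.2 and 86.7 CPM, with 0.68 (0.60 to 0.76). EFNB1, a transmembrane ephrin, stood at 5.73 and 8.90 CPM, with 0.64 (0.39 to 0.89). SEMA4C, a transmembrane ligand of PLXNB2, had the largest ratio, 1.00 (0.23 to 1.81), from 22 and 45 UMIs.

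The bands held different mixtures of excitatory subclusters. Deep-layer-like nuclei, where EPHB1, SEMA5A and SEMA5B stood higher, were 785 of 3183 excitatory nuclei in the upper band and 236 of 3448 in the deeper. Subcluster 14, where EPHB1 and ROBO1 peaked, held 141 and 22 nuclei. When each subcluster was given 1 common weight for both bands, 1 of the 7 genes kept its 1.5-fold difference, SEMA4C at a log2 ratio of 1.02. EPHB1 came to 0.18, SEMA5B to 0.062, SEMA5A to 0.048 and ROBO1 to 0.098, all with the opposite sign. EPHA3 came to 0.17 and EFNB1 to 0.15. Over all genes the share past 1.5-fold went from 11.9% to 5.95% under the same weights.

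**Figure D5:**
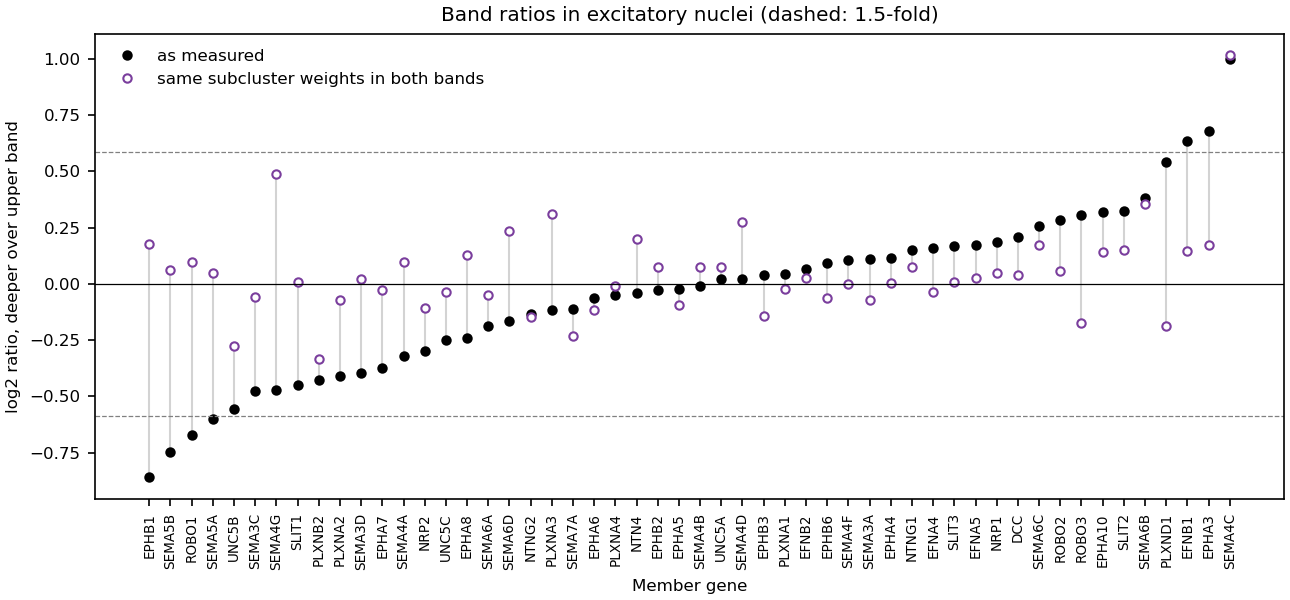
Log2 ratio, deeper over upper band, of 52 guidance genes in excitatory nuclei, as measured (filled points) and with the same subcluster weights in both bands (open points), with dashed lines at 1.5-fold. As measured, 7 genes lie outside the dashed lines, and with the same weights 1 does, SEMA4C.

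In inhibitory neurons 47 genes were compared and 4 differed 1.5-fold (8.51%, against 7.32% of all genes), 2 higher in the deeper band (3.49% of all genes) and 2 lower (3.83%). EPHA3 was higher in the deeper band here too: its levels were 58.2 and 102 CPM, its log2 ratio 0.81 (0.63 to 0.98). UNC5B stood at 25.4 and 44.2 CPM, with 0.80 (0.53 to 1.06). Inhibitory subcluster 11, whose most raised gene was UNC5B, held 16 of 1021 nuclei in the upper band and 34 of 770 in the deeper. The part of subcluster 11 in the UNC5B difference was not tested. The 13 oligodendrocyte markers, of the class that leads UNC5B, also summed to more in inhibitory nuclei of the deeper band, 134 and 174 CPM, with 3 of them lower and none at 0, and their part in this difference was not tested. SEMA3C was lower, at 29.0 and 15.6 CPM, with -0.89 (-1.25 to -0.55). SLIT3 was lower too, at 40.5 and 22.8 CPM, with -0.83 (-1.12 to -0.54). SLIT3 depends on the removal of doublets, since its ratio was 0.24 with none removed.

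In astrocytes 25 genes were compared and 3 differed 1.5-fold (12%, against 9.02%), 1 higher (5.15% of all genes) and 2 lower (3.87%). SLIT2 stood higher in the deeper band: its levels were 188 and 361 CPM, its log2 ratio 0.94 (0.72 to 1.16). This was 21.6% and 33.1% of its excitatory level, while the 13 excitatory markers summed to 628 and 578 CPM in astrocytes (7 lower in the deeper band, NEUROD2 at 0 in both), and their part in this difference was not tested. EPHB3 and SLIT1 were lower by more than 1.5-fold with intervals that held 0. In oligodendrocytes 33 genes were compared, none was past 1.5-fold on the higher side (3.89% of all genes) and 5 were on the lower side (15.2%, against 3.05% of all genes lower and 6.95% either way). The largest was SLIT1 at 18.04 and 6.82 CPM, with -1.40 (-2.17 to -0.66). SEMA5A followed at 22.4 and 10.2 CPM, with -1.13 (-1.77 to -0.50). SLIT3 stood at 13.7 and 6.33 CPM, with -1.11 (-1.94 to -0.29). UNC5A and PLXNA2 were the others, PLXNA2 with an interval that held 0. These levels are low: SLIT1 stood at 6.75% and 3.48% of its excitatory level, SLIT3 at 6.14% and 2.54%. Excitatory markers in oligodendrocytes were lower in the deeper band as well, 9 of 13 of them, summing to 428 and 345 CPM, with NEUROD2 at 0 in the upper band, and their part in these differences was not tested. The oligodendrocyte-led genes themselves were within 1.5-fold between bands, for example EFNA4 at a log2 ratio of -0.018 (-0.16 to 0.13) and UNC5B at -0.17 (-0.32 to -0.015). In precursors 19 genes were compared and PLXNA2 alone passed 1.5-fold (5.26%, against 9.32% either way, 5.13% higher and 4.18% lower among all genes), at 179 and 116 CPM, with -0.63 (-1.17 to -0.088).

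Within a layer class the bands were compared again. In upper-layer-like nuclei 48 genes were compared and 4 differed 1.5-fold (8.33%, against 7.44% of all genes), none higher (3.15%) and 4 lower (4.29%) in the deeper band. SEMA3C stood at 7.95 and 4.41 CPM, with -0.85 (-1.22 to -0.47). ROBO1 stood at 372 and 244 CPM, with -0.61 (-0.66 to -0.56). SEMA6A stood at 87.6 and 57.8 CPM, with -0.60 (-0.71 to -0.49), and UNC5B had an interval that held 0. In deep-layer-like nuclei 9 of 42 genes differed (21.4%, against 12.6%), 5 higher (6.46% of all genes) and 4 lower (6.13%). EPHA3 stood at 125 and 312 CPM, with 1.33 (1.18 to 1.47). EPHA10 stood at 29.0 and 66.8 CPM, with 1.20 (0.90 to 1.51). PLXND1 was higher too, at 9.84 and 17.3 CPM, with 0.82 (0.23 to 1.39). The lower side held SEMA7A, a lipid-anchored semaphorin, at 20.7 and 11.3 CPM, with -0.88 (-1.53 to -0.27). NTNG1 was at 74.0 and 41.6 CPM, with -0.83 (-1.16 to -0.52), and EPHA4 at 396 and 254 CPM, with -0.64 (-0.77 to -0.51). SEMA3C and NRP1 were the other higher genes, and NTN4 was the remaining lower one. Subcluster 1, in which EPHA3 and EPHA10 stood highest, made up 93 of 785 deep-layer-like nuclei in the upper band and 93 of 236 in the deeper. Within subcluster 1 EPHA3 stood at 760.1 and 549.8 CPM, lower in the deeper band, and within subcluster 5 at 60.7 and 217 CPM, higher in the deeper band.

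In interneurons, 8 of 45 genes differed between bands in MGE-like nuclei (17.8%, against 7.78%), 4 higher (3.52% of all genes) and 4 lower (4.26%). The higher ones were SEMA4B at 5.63 and 9.87 CPM, with 0.81 (0.10 to 1.52), EPHA3, ROBO2 and EFNB1, the last with an interval that held 0, and the lower ones PLXNB2 at 13.1 and 6.83 CPM, with -0.94 (-1.63 to -0.29), SLIT3, DCC and NRP2. In CGE-like nuclei 13 of 37 did (35.1%, against 11.5%), 3 higher (6.39% of all genes) and 10 lower (5.12%). Neither this count nor that in MGE-like nuclei was recomputed under other settings. NTNG1 was lower in CGE-like nuclei, at 72.5 and 35.2 CPM, with -1.04 (-1.54 to -0.57). SEMA3C stood at 89.7 and 44.5 CPM, with -1.01 (-1.45 to -0.59), and SLIT3 at 46.3 and 25.1 CPM, with -0.88 (-1.48 to -0.31). UNC5B was higher, at 24.3 and 49.6 CPM, with 1.03 (0.48 to 1.58), as were SEMA5B and EPHA10. Beside UNC5B, the 13 oligodendrocyte markers summed to 84.0 and 132 CPM in CGE-like nuclei (3 lower in the deeper band, MAG at 0 in the upper and CNP in the deeper). Beside SEMA5B, the 8 precursor markers summed to 358 and 471 CPM (3 lower, OLIG2 and C1QL1 at 0 in both bands and COL9A1 in the deeper), and the part of either list was not tested. SEMA3A, SEMA6A, EFNA5, NRP2 and EPHA3 were the other lower ones, with SLIT1 and NTN4, whose intervals held 0. Subcluster 19, the CGE-like group with most SEMA3C, was 73 of 266 CGE-like nuclei in the upper band and 27 of 219 in the deeper, and within it SEMA3C stood at 267 and 227 CPM.

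Other genes of these pathways were taken from a list of 69 signalling proteins, co-receptors and adhesion partners, of which 64 had a row. In excitatory neurons 62 were compared, 1 was 1.5-fold higher in the deeper band and 8 lower, against 4.2% and 7.7% of all genes. CFL1, the actin-severing protein cofilin, was the higher one, from 1.10 to 2.65 CPM, log2 ratio 1.27 (0.73 to 1.83). VAV2, an exchange factor that acts below Eph receptors, stood at 11.4 and 2.67 CPM, with -2.09 (-2.42 to -1.78). DPYSL5, a collapsin response mediator protein of the semaphorin pathway, stood at 17.8 and 9.48 CPM, with -0.90 (-1.09 to -0.72), and CXCL12, a chemokine, at 1.02 and 0.55 CPM, with -0.89 (-1.73 to -0.082). Under the same subcluster weights 3 of them passed 1.5-fold (5.95% of all genes). The counts past 1.5-fold were 1 higher and 2 lower of 59 in inhibitory neurons, 1 and 2 of 42 in astrocytes, 0 and 3 of 46 in oligodendrocytes and 0 and 0 of 34 in precursors. The shares of all genes higher and lower were 3.49% and 3.83%, 5.15% and 3.87%, 3.89% and 3.05%, and 5.13% and 4.18% in these classes.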

How the data were processed

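Nuclei of 2 droplet libraries were analysed from the raw UMI counts per gene and barcode that the authors deposited. The submitters' processing notes name Cell Ranger 6.2.1 and 2.1.1 without a role, and the genome build and annotation are not given in the sources used here, so no coordinates or sequences are printed. Nuclei with at least 500 genes were kept (7091 and 9608), and Scrublet at its automatic threshold removed 830 and 1458 as doublets (11.7% and 15.2%, where the loading predicts 5.67% and 7.69%). The remainder were clustered in Python 3.11.15 with scanpy 1.11.5 (2000 variable genes without the 66 guidance genes, 30 principal components, 15 neighbours, Leiden resolution 1) and named from marker lists, a cluster needing at least 3 raised markers. Names are therefore by resemblance. The requirement that a subcluster's layer or interneuron name lead by 2 markers was set after marker levels were seen. UMIs of a class were summed per library and scaled to counts per 1000000 (CPM) here. Single values carry exact Poisson 95% intervals and ratios exact conditional binomial ones. Calls were 1.5-fold with 50 UMIs over both libraries between bands, and 2-fold in both libraries, with 50 UMIs in each, between classes. The counting was tested on simulated data. In the weighting by subcluster, each subcluster had its mean share of excitatory UMIs over both libraries.

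The guidance genes, gene lists and rules were chosen with earlier results of these data known, and the list of 25 ligand-receptor pairs was written after the files were seen. Genes named with values were the 3 most class-led per class, up to 10 per direction between bands in excitatory nuclei and 3 in other groups, up to 6 per direction between layer classes and 4 between interneuron classes, fixed sets of SLIT, netrin, semaphorin and ephrin genes with their receptors, and up to 3 pathway genes per direction. EFNA4 and SEMA3C in an unnamed cluster, and the subcluster values, were chosen after their values were seen. Alternatives changed doublet removal, the gene minimum, the clustering, depth, scaling and thresholds.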

Additional observations from a re-analysis of the deposited data

Results flagged for a closer look

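SEMA3C went opposite ways between bands in the layer classes. Its log2 ratio, deeper over upper band, was -0.85 in upper-layer-like and 0.79 in deep-layer-like excitatory nuclei, with 1 library per band, and the difference was not tested. EPHA3 did so among interneurons, with a log2 ratio of 0.77 in MGE-like and -0.61 in CGE-like nuclei, and that difference was not tested either.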

How the results depend on the processing

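Of 120 recomputed counts of genes, 100 stayed within 1.5 times the value reported. Counts between bands within MGE-like and CGE-like nuclei were not among them. A 3-fold threshold left 11 genes led by a class (22%, against 8.56% of all genes), 7 divided by layer (15.9%, against 5.18%) and 6 divided by interneuron class (14.3%, against 4.35%). A 2-fold threshold between bands left 1 gene in excitatory neurons and 2 pathway genes (3.31% of all genes), 0 in inhibitory neurons (1.25%), 0 in astrocytes (1.33%), 3 in oligodendrocytes (1.02%), 0 in precursors (1.39%), 0 in upper-layer-like (1.32%) and 2 in deep-layer-like nuclei (3.51%). A minimum of 200 UMIs left 1 in astrocytes (2.68%), 0 in oligodendrocytes (2.2%) and 0 in precursors (1.46%). These follow from the stricter rules. The mean of each nucleus's CPM gave 8 in inhibitory neurons (8.67%) and 0 in precursors (10.2%), 2 times as many doublets removed gave 2 in precursors (9.05%), and with no doublets removed 9 genes were divided by layer (7.57%), all 9 among the 15. With each nucleus thinned to 1500 UMIs, 9 genes were divided by interneuron class, 6 of them among the 12, and 11 by layer, all among the 15. Over all settings the share of guidance genes divided by interneuron class ran from 14.3% to 40.9% (4.35% to 8.98% of all genes). By layer it ran from 15.9% to 36.6% (5.18% to 9.66% of all genes). Weighting the subclusters alike, chosen after seeing the data, left 1 gene and 3 pathway genes in excitatory neurons (5.95%) and turned EPHB1 to 0.18, ROBO1 to 0.098, SEMA5A to 0.048 and SEMA5B to 0.062, while SLIT3 in inhibitory neurons came to 0.24 with no doublets removed. Except for the stricter rules, the cause was not tested. The pathway alternatives were also added after seeing the data. Of 187 recomputed ratios between bands 5 changed sign, all named above, and 16 moved in size beyond their interval. Of 430 between classes of neuron none changed sign and 88 moved.

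No paired analysis was possible because each band has 1 library, so leaving out a library was not done. Intervals cover counting error between nuclei pooled per library, not variation between animals. Genes with few UMIs, such as SEMA4C with 22 and 45, carry wide ones.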
